A study of Mus musculus with 15 samples.

Results

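Polyamines (putrescine, spermidine and spermine) are small cations that bind RNA and DNA and are needed for growth and protein synthesis, and 9 genes of their metabolism are described here: Odc1, Azin1, Oaz1, Oaz2, Srm, Sms, Sat1, Smox and Amd1. They were taken as the probe sets of the array whose platform annotation gives only that gene symbol, and 6 of the 9 genes had such a probe set, of 19938 genes with one on the array. Odc1 had 2 probe sets and Azin1, Oaz2, Srm, Sat1 and Smox 1 each, which makes 7 of the 35556 probe sets. Oaz1 and Sms have probe sets only under several symbols and Amd1 has none listed, so these 3 genes were not analysed here. The set was chosen by the measured fall of Odc1 in calorie-restricted wildtype mice, so that comparison is given below as a description, and its count past the threshold supports nothing.

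The samples were the gastrocnemius, a calf muscle, of male C57BL/6 mice aged 12 months, 1 mouse per array and 15 arrays. There were 3 wildtype mice on the control diet, 4 wildtype mice under calorie restriction (CR), 4 Sirt3 knockout mice on the control diet and 4 Sirt3 knockout mice under CR. Sirt3 is a mitochondrial NAD-dependent deacetylase. The sources used here do not say how the allele was made, which cells it affects, or how strict and how long CR was.

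The polyamine pathway starts with ornithine decarboxylase (Odc1), the rate-limiting step, which makes putrescine from ornithine. Antizymes (Oaz1, Oaz2) bind the enzyme and send it to the proteasome when polyamines are plentiful, and antizyme inhibitor (Azin1), an Odc1-like protein with no enzyme activity, binds antizyme and frees the enzyme. Spermidine synthase (Srm) and spermine synthase (Sms) add aminopropyl groups that the product of Amd1 supplies, Sat1 acetylates spermidine and spermine for export or breakdown, and Smox oxidises spermine back to spermidine. In mouse skeletal muscle, Odc1 is known as an androgen-responsive gene and Smox as a gene whose transcript falls in atrophy.

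The promoters of Odc1 and Smox, the genes at the entry and at the return step of the pathway, are shown because the levels reported are those of their transcripts. Azin1 has no entry in the promoter table used. The sequences are from RefSeq on GRCm38.p6, on the + strand, at chr12:17544623-17544807 (185 bases) for Odc1 and chr2:131491612-131491857 (246 bases) for Smox. Each ends at the base before the gene record begins. The table's windows of 250 bases before a start run 65 and 4 bases further, into the record. Capitals mark the GC box, GGGCGG on either strand.
Odc1: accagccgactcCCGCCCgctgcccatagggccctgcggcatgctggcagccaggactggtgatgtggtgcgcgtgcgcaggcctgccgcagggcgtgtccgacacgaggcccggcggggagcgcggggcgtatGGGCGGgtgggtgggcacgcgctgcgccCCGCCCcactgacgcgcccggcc
Smox: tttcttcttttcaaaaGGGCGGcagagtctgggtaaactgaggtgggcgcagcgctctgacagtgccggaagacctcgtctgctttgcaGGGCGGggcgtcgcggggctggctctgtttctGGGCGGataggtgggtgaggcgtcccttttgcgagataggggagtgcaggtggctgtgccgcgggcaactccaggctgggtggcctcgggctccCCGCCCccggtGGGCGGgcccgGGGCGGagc
The Odc1 stretch holds 3 GC boxes and the Smox stretch 6, and neither holds the Myc-type E-box, CACGTG on either strand. Only the promoter windows were searched, so sites elsewhere in or near the genes are not covered. Over its 250 bases the Odc1 window is 80% G or C, above 98.8% of the 32851 promoter windows of that length, whose median is 52.4%. The Smox window is 68% G or C. At least 1 GC box occurs in 32.7% of all windows, and 3 or more in 8.47%. Over the same 250 bases the Odc1 window holds 4 GC boxes and the Smox window 6. The E-box is in 6.02% of all windows. Of the 9 genes, 7 had a window in that table.

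Values are log2 intensities made by the authors with RMA, and a difference of 1 is a doubling of the signal. With 3 or 4 arrays in a group, precision is limited throughout. In whole muscle, fewer cells of a type and less RNA per cell cannot be told apart. Sirt3 was lower on every knockout array (4.94 to 6.19) than on any wildtype array (6.38 to 6.68), a difference of -0.95 (two-sided exact permutation p = 0.000622 over 6435 splits). All 15 markers of skeletal muscle were above the filter on low values, and their mean lay between 12.43 and 12.60 on every array. Some arrays stood apart by transcripts of other tissues. The mean of 14 male germ cell markers exceeded that of the median array by 3.96 in wildtype control replicate 3 and by 3.45 in knockout control replicate 1. That of 9 pancreatic acinar markers (of 12 listed) exceeded it by 7.14 in wildtype control replicate 2, and that of 13 liver markers (of 15 listed) by 2.67 in wildtype CR replicate 4. The germ cell mean ranged from 5.64 to 9.60 in wildtype control, 5.18 to 6.36 in wildtype CR, 5.42 to 9.09 in knockout control and 5.20 to 6.09 in knockout CR mice. The acinar mean ranged from 5.88 to 12.41 in wildtype control mice and from 5.08 to 5.39 in the other 3 groups. No defining marker can be called absent from log2 intensities, and 5 of the germ cell, 2 of the acinar and 1 of the liver markers lay below the filter in their mean over all arrays. Differences printed below that moved by over 1.5 times without these 4 arrays are given both ways. Leaving them out keeps wildtype control replicate 1 alone in its group, so each such comparison with that group rests on 1 mouse there. The 4 arrays are those where such a list mean exceeded that of the median array by over 2. Lower excesses remain on arrays that were kept. The liver mean was higher than on the median array by 1.54 in wildtype control replicate 1 and by 1.68 in knockout control replicate 2. In wildtype control replicate 1 the acinar mean was higher by 0.60.

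Odc1, the rate-limiting enzyme, was highest in wildtype muscle on the control diet. The brighter of its probe sets, which stands for the gene below, read 7.80, 8.25 and 8.61 in the 3 wildtype control mice and 7.32, 6.96, 7.30 and 6.97 in the 4 wildtype CR mice. It read 7.67, 7.32, 7.38 and 7.44 in the knockout control and 6.92, 6.75, 7.35 and 7.15 in the knockout CR mice. All wildtype control values lay above all others, and the knockout diet groups overlapped in a single CR mouse, replicate 3, at 7.35. The means were 8.22 ± 0.41 (SD, n = 3), 7.14 ± 0.20 (SD, n = 4), 7.45 ± 0.15 (SD, n = 4) and 7.04 ± 0.26 (SD, n = 4) in that order. The order of these means was thus wildtype control, knockout control, wildtype CR and knockout CR. The lowest knockout control value, 7.322, lay just above the highest wildtype CR value, 7.318, and the wildtype and knockout CR groups overlapped. The second probe set of Odc1 also had its highest mean in the wildtype control group but placed the other groups differently. It read 7.41, 7.87 and 8.21 in wildtype control, 7.49, 7.11, 7.02 and 6.95 in wildtype CR, 7.54, 7.26, 7.37 and 7.27 in knockout control, and 6.63, 6.27, 6.61 and 6.69 in knockout CR mice. On this probe set the 4 knockout CR mice lay below all other mice, while the wildtype diet groups overlapped. Over the 15 arrays, which both share, the probe sets had a Pearson r of 0.87 and a Spearman rho of 0.82. Both are assigned to Odc1 by the platform annotation alone, and where each lies in the genome was not checked. Which of them is closer to the level of the Odc1 transcript is therefore not settled here. The first stands for the gene only because it is brighter.

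**Figure D1:**
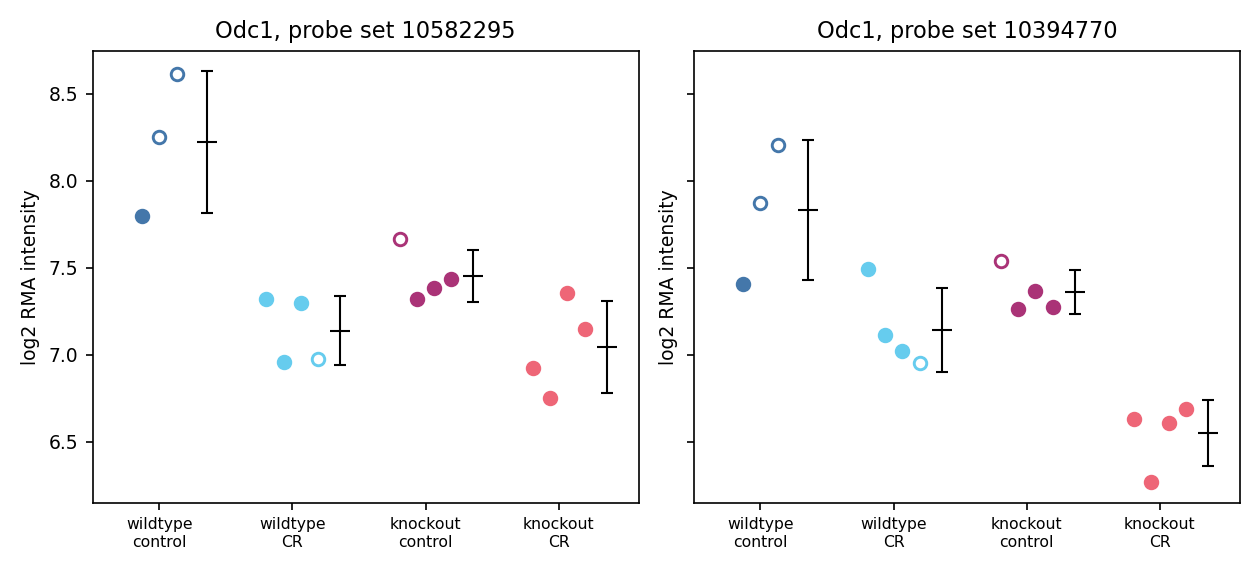
Log2 intensity of the 2 Odc1 probe sets on each of the 15 arrays (vertical axis) by genotype and diet (horizontal axis), with group means; open symbols are the 4 arrays with transcripts of another tissue. The wildtype control mice are highest on the first probe set (7.80 to 8.61) and the knockout CR mice lowest on the second (6.27 to 6.69).

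In wildtype mice the Odc1 level under CR differed from control by -1.08 (SE 0.18), or 0.472 of the control signal. By the second probe set the difference was -0.69 (SE 0.17). This comparison chose the gene, so these are descriptions. The 2 highest wildtype control values of Odc1, 8.25 and 8.61, came from the arrays with acinar and germ cell transcripts, and the part of those tissues in the difference was not tested. Without the 4 arrays, the difference was -0.60, and -0.20 by the second probe set. The mean of 8 tendon markers was also lower under CR, at 6.50 to 7.24 on the wildtype CR arrays against 7.40 to 7.72 on the wildtype control arrays, and its part was not tested either. The mean of 9 adipocyte markers (of 10 listed) ranged from 7.57 to 8.00 in wildtype control, 7.48 to 8.81 in wildtype CR, 7.73 to 8.33 in knockout control and 7.87 to 8.96 in knockout CR mice, and its part was not tested. In limma with Benjamini-Hochberg adjustment over 12056 genes and a threshold of 0.05, 1 of the 6 genes, Odc1, passed in this comparison, where 0.124% of all genes did, 0.0166% as lower. The groups did not overlap for 1 of the 6, again Odc1, as for 2.95% of all genes in that direction. Singly, 0.0757% of 13203 probe sets passed. Nothing is read from these counts.

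In Sirt3 knockout mice, whose arrays the choice did not use, Odc1 did not pass the limma threshold by either probe set. The difference between CR and control was -0.41 (SE 0.17, limma adjusted p = 0.351) by the first probe set. By the second it was -0.81 (SE 0.16), or 0.570 of the control signal, with a limma adjusted p of 0.0832. That p was adjusted over 13203 probe sets tested singly, of which 0.0682% passed. The groups did not overlap on the second, as for 3.08% of all 12056 genes in that direction, 1 probe set each. Over these 8 mice alone, the two-sided exact permutation p was 0.0571 for the first and 0.0286 for the second, the latter being the smallest that 70 splits allow. Without the 4 arrays, of which knockout control replicate 1 is the one in this comparison, the difference was -0.34 by the first probe set and -0.75 by the second, whose limma adjusted p was then 0.0316. Tendon markers lay between 6.94 and 7.28 on the knockout control and between 6.39 and 7.16 on the knockout CR arrays.

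Averaged over the genotypes, Odc1 fell under CR by 0.75 on the log2 scale with either probe set. The difference was -0.75 (SE 0.12, 95% interval -1.01 to -0.48, limma adjusted p = 0.0167) by the first, or 0.597 of the control signal. It was -0.75 (SE 0.12, 95% interval -0.998 to -0.501, limma adjusted p = 0.0123) by the second. Of the 6 genes, 1 passed, where 1.07% of all 12056 genes did and 0.423% did so as lower. Singly, 1.36% of the 13203 probe sets passed. The wildtype arrays that chose Odc1 enter this average, so it is not independent of the choice. It was, without the 4 arrays, -0.47 (adjusted p = 0.209) by the first and -0.48 (adjusted p = 0.153) by the second, and neither passed. Without only the 2 germ cell arrays the first gave -0.61 (adjusted p = 0.0404).

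The probe sets parted where the genotypes were compared. On the control diet, Odc1 in knockout mice differed from wildtype by -0.77 (SE 0.18, limma adjusted p = 0.599) with no overlap, and by -0.47 (SE 0.17, limma adjusted p = 0.622) with overlap by the second probe set. Odc1 was the 1 gene of the 6 without overlap here, in a direction in which 1.29% of all genes had none. The differences were -0.42 and -0.11 without the 4 arrays. The acinar mean (5.88 to 12.41 against 5.08 to 5.21) and the tendon mean (7.40 to 7.72 against 6.94 to 7.28) also separated these groups, and their part was not tested. This comparison shares the wildtype control arrays with the one that chose Odc1. Under CR, the same difference was -0.09 (SE 0.17, limma adjusted p = 0.993) by the first and -0.60 (SE 0.16, limma adjusted p = 0.573) by the second. Without the 4 arrays it was -0.15 and -0.66. The groups did not overlap on the second alone, as for 2.76% of all 12056 genes in that direction, 1 probe set each. Singly, 0.0303% of the probe sets passed in limma. The interaction, which tests whether the CR difference itself differed between genotypes, was 0.67 (SE 0.24, 95% interval 0.15 to 1.20, limma adjusted p = 0.828) by the first and -0.13 (SE 0.23, 95% interval -0.62 to 0.37, limma adjusted p = 0.972) by the second. They became 0.27 and -0.55 without the 4 arrays. A different response of Odc1 to CR in the absence of Sirt3 was thus not called by either probe set, and their signs were opposite. The genotype comparison under CR shares the wildtype CR arrays with the comparison that chose Odc1, and the interaction shares all wildtype arrays. Neither is independent of the choice.

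Azin1, the inhibitor that frees ornithine decarboxylase from antizyme, had lower values under CR in knockout mice. It read 7.81, 7.70, 7.72 and 7.21 in the knockout control and 6.77, 6.47, 7.11 and 6.85 in the knockout CR mice. All CR values lay below all control values, as in 3.08% of all genes, and the difference was -0.81 (SE 0.24), or 0.571 of the control signal. It did not pass (limma adjusted p = 0.225). In wildtype mice Azin1 read 7.13, 8.25 and 8.11 on the control diet and 6.91, 6.995, 7.20 and 7.66 under CR, and the groups overlapped. The wildtype difference was -0.64 (SE 0.25), and the 2 highest control values were again those of the arrays with acinar and germ cell transcripts. Without the 4 arrays it was -0.09 in wildtype and -0.74 in knockout mice (limma adjusted p = 0.0877 in the latter). Averaged over genotypes Azin1 differed by -0.72 (SE 0.17, limma adjusted p = 0.0607). The interaction was -0.17 (95% interval -0.91 to 0.57). With the 4 arrays left out the average was -0.42 (limma adjusted p = 0.328) and the interaction -0.66 (limma adjusted p = 0.642).

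Oaz2, an antizyme, read between 6.84 and 7.36 on the 15 arrays, with all groups overlapping. Its group means were 7.18 ± 0.12 (SD, n = 3) in wildtype control, 7.19 ± 0.12 (SD, n = 4) in wildtype CR, 7.02 ± 0.14 (SD, n = 4) in knockout control and 7.16 ± 0.13 (SD, n = 4) in knockout CR mice. The difference under CR was 0.02 (95% interval -0.20 to 0.23; 0.13 without the 4 arrays) in wildtype and 0.14 (95% interval -0.06 to 0.33, limma adjusted p = 0.578) in knockout mice. No change of Oaz2 with diet was called, and the intervals hold differences of up to 0.33 log2 units.

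Srm, which makes spermidine, showed no called change. It read 7.74, 8.22 and 7.38 in wildtype control, 7.90, 7.89, 7.74 and 8.00 in wildtype CR, 8.09, 7.74, 7.70 and 7.76 in knockout control and 7.64, 7.47, 7.65 and 7.70 in knockout CR mice. Its highest wildtype control value came from the array with acinar transcripts, and its highest knockout control value from an array with germ cell transcripts. Under CR all knockout values lay below all wildtype values, a difference of -0.27 (SE 0.14, limma adjusted p = 0.864) without overlap, as for 2.76% of all genes in that direction. The CR difference in knockout mice was -0.21 (SE 0.14, limma adjusted p = 0.583), and -0.12 without the 4 arrays.

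Smox, the spermine oxidase, was lowest in knockout mice under CR. It read 9.999, 10.18 and 10.38 in wildtype control, 9.63, 10.17, 10.11 and 9.79 in wildtype CR, 8.92, 10.09, 10.24 and 9.79 in knockout control and 8.74, 9.25, 9.18 and 9.32 in knockout CR mice. All knockout CR values lay below all wildtype values, and the knockout diet groups overlapped only through the control mouse at 8.92, whose array is the one with germ cell transcripts. The difference between CR and control in knockout mice was -0.64 (SE 0.24), or 0.643 of the control signal, and did not pass (limma adjusted p = 0.314). Without that array it was -0.92 (limma adjusted p = 0.0885), and without all 4 arrays also -0.92 (limma adjusted p = 0.0504). Under CR, knockout mice differed from wildtype by -0.80 (SE 0.24, limma adjusted p = 0.630), and by -0.85 without the 4 arrays. These groups did not overlap, as for 2.76% of all genes in that direction. In wildtype mice CR and control differed by -0.26 (95% interval -0.81 to 0.29). The interaction of Smox was -0.38 (95% interval -1.12 to 0.37). The 2 values became -0.03 and -0.89 (limma adjusted p = 0.593 for the interaction) without the 4 arrays, and the interaction was called in neither case.

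Sat1, the acetyltransferase that starts polyamine breakdown, read between 5.47 and 6.23 on the 15 arrays. The 4 knockout control arrays all gave 5.88, to every deposited digit. Of the 35556 probe sets, 16 were identical on all 4 of these arrays, and 37.6% held the same value on at least a pair of the 15 arrays. The difference under CR was 0.11 (95% interval -0.24 to 0.46; 0.41 without the 4 arrays) in wildtype and -0.03 (95% interval -0.35 to 0.29, limma adjusted p = 0.948) in knockout mice, and no change was called.

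**Figure D2:**
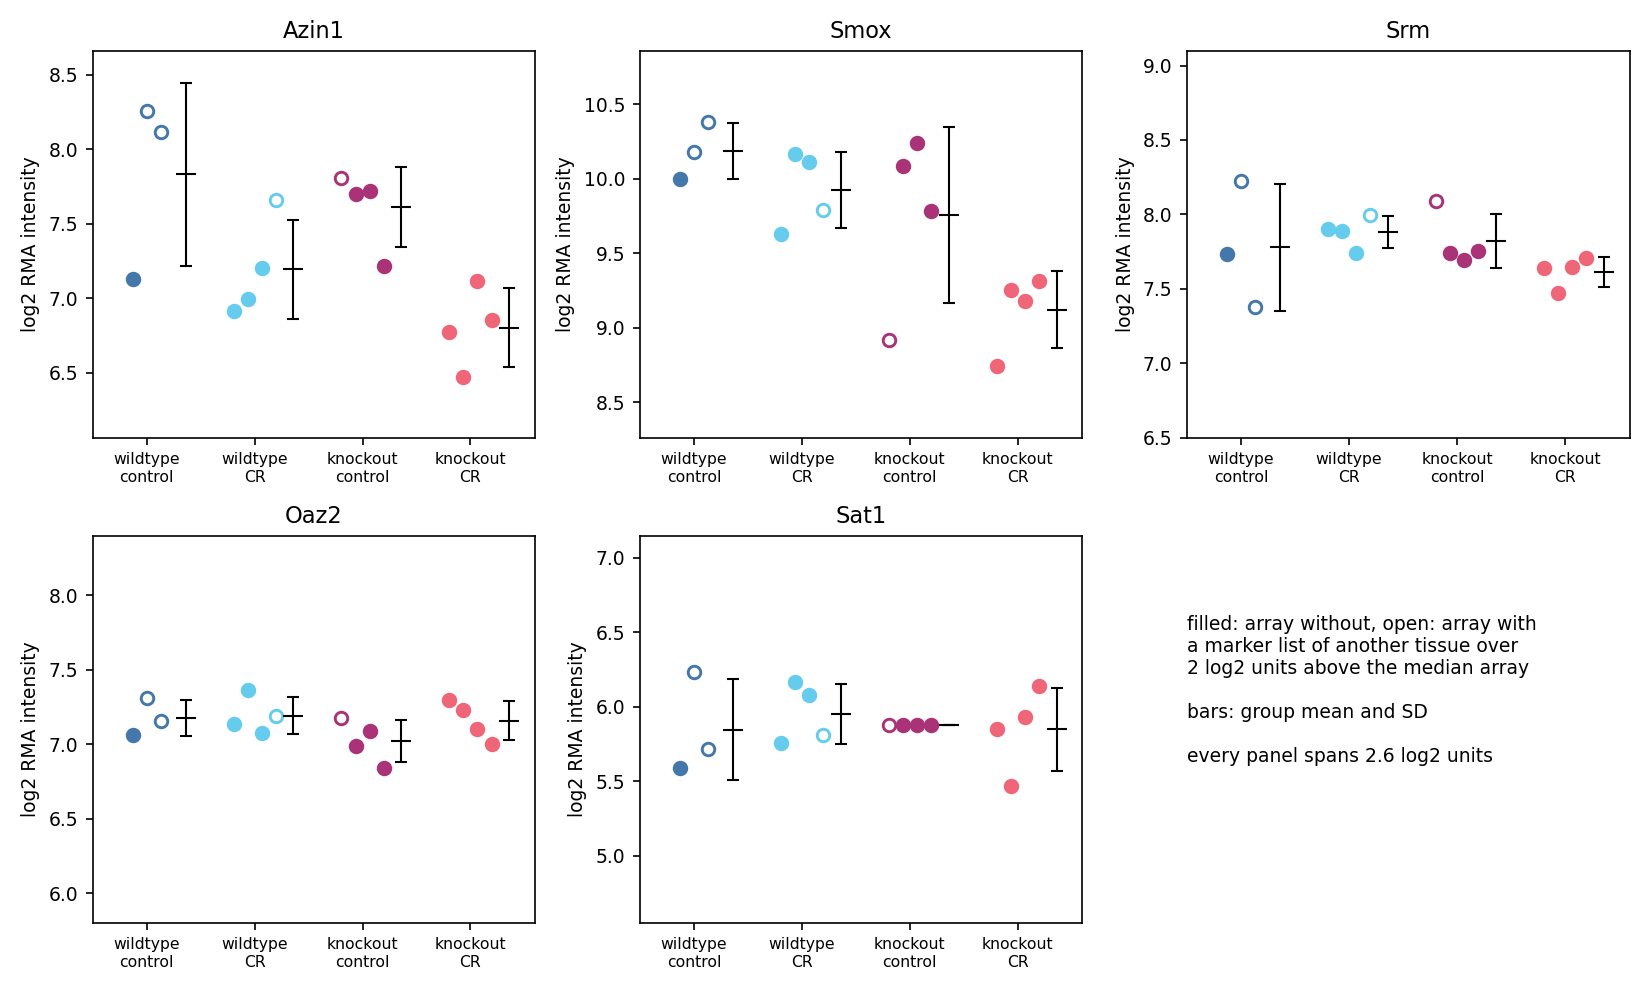
Log2 intensity of Azin1, Oaz2, Srm, Sat1 and Smox on each array (vertical axes, of equal span) by genotype and diet, with group means; open symbols are the 4 arrays with transcripts of another tissue. Azin1 under CR lies below control in the knockout mice, Smox is lowest in the knockout CR mice (8.74 to 9.32), and Oaz2 stays within 6.84 to 7.36.

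The choice of Odc1 did not use the mean levels of the knockout mice. In these mice 0 of the 6 passed for CR in limma, where 0.0664% of all genes did and 0.0581% as lower. An unadjusted p under 0.05 was found for 3 of the 6 (Odc1, Azin1 and Smox), as for 12.0% of all genes. The median difference of the 6 was -0.31 with 5 below 0, beside a median of 0.01 and 47.0% below 0 over all genes tested. The 4 arrays left out, these were 0 and 3 of 6, a median of -0.23 and 5 below 0, with 13.3% of all genes at such a p. For knockout against wildtype on the control diet 0 of 6 passed in limma (background 0.00%) and 1 had an unadjusted p under 0.05, beside 7.03% of all genes. Under CR that comparison gave 0 of 6 (background 0.0166%), with 1 at an unadjusted p under 0.05 (5.92% of all genes) and all 6 below 0 (53.3% of all genes). The interaction gave 0 of 6 (background 0.00%) and 1 at an unadjusted p under 0.05 (5.71% of all genes). All 6 genes and all 7 probe sets were above the filter on low values in their mean over the arrays.

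**Figure D3:**
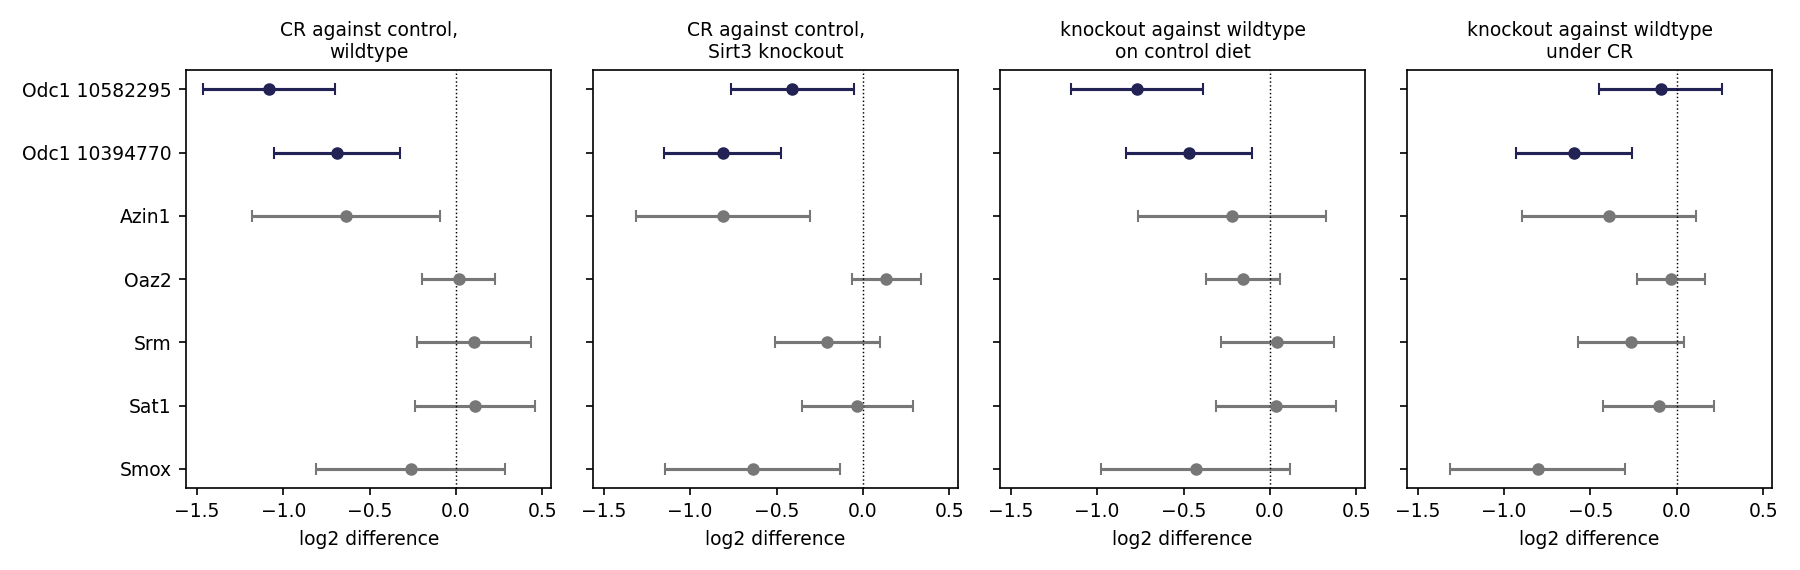
Differences on the log2 scale with unadjusted 95% intervals (horizontal axis) for the 7 probe sets of the 6 genes, from limma. The panels show CR against control in each genotype and knockout against wildtype on each diet. The intervals of both Odc1 probe sets lie below 0 for CR in both genotypes. Of these, only the first probe set in wildtype mice passed the adjusted threshold. That comparison chose Odc1, so its panel is a description.

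Other genes of polyamine metabolism showed no called difference. Of 4 other enzymes and regulators tested (of 7 listed), 0 passed in any of the 6 comparisons in limma, and 0 had an unadjusted p under 0.05 for CR in either genotype. Over all genes tested, 13.1% in wildtype and 12.0% in knockout mice had such a p, which the counts of the lists below are to be read against. The median CR difference of the 4 genes was -0.15 in wildtype and -0.05 in knockout mice, beside 0.04 and 0.01 over all genes tested. Paox, Amd2 and Mat2a have no probe set under their symbol alone and were not analysed here. Oaz3, the antizyme of male germ cells, read 9.28 on wildtype control replicate 3 and 8.66 on knockout control replicate 1, against 4.27 to 5.88 on the other arrays. Azin2, the second antizyme inhibitor, read 6.48 and 6.28 on the same arrays and 5.52 to 5.85 elsewhere. Oaz3 is itself among the 14 male germ cell markers that picked out these arrays, so its high level there was given by that choice. Azin2 is not among those markers, and it too was highest on these arrays.

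Of 11 transport genes tested (of 14 listed), 0 passed, 2 had an unadjusted p under 0.05 for CR in wildtype mice and 0 in knockout mice, and their median CR difference was 0.04 and 0.02. Atp13a2, the lysosomal polyamine exporter, differed by 0.28 (SE 0.08, limma adjusted p = 0.178) in wildtype mice under CR, and by 0.14 without the 4 arrays. Slc47a1, an organic cation exporter, differed by 0.22 in wildtype and -0.17 in knockout mice, and by 0.08 and -0.25 without them. The 4 genes of eIF5A and its hypusine modification, which consumes spermidine, gave 0 calls and 1 and 0 unadjusted p under 0.05 in the same order, with medians of 0.08 and 0.07. Dhps, which transfers the spermidine moiety, differed by 0.30 (SE 0.09, limma adjusted p = 0.192) in wildtype mice and by 0.05 in knockout mice (-0.02 in the latter without the 4 arrays). Eif5a itself read 9.96 to 10.30 throughout, and Eif5a2, its close relative, differed by 0.03 and -0.06, and by 0.08 and -0.03 without those arrays.

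The supply of precursors gave as few calls. Of 13 methionine cycle and salvage genes tested (of 15 listed), 0 passed and 0 had an unadjusted p under 0.05 for CR in either genotype, with medians of 0.04 and 0.01. Averaged over genotypes, Mtr, methionine synthase, differed by -0.19 (SE 0.07) and Enoph1, of methionine salvage, by 0.11 (SE 0.04). Of 7 arginine and ornithine genes tested (of 12 listed), 0 passed and 1 had such a p in each genotype, with medians of 0.07 and 0.14. Nos1, which uses arginine to make nitric oxide, differed by 0.34 (SE 0.10, limma adjusted p = 0.106) averaged over genotypes, and Gatm, which uses it in creatine synthesis, by -0.59 (SE 0.21, limma adjusted p = 0.157). These averages were 0.12 and -0.11 without the 4 arrays, and the wildtype difference of Gatm, -0.61, became 0.27. Gatm read 8.93 on the array with acinar transcripts. Arg1 and Arg2, the arginases that release ornithine, were below the filter. Of 10 Myc network genes tested (of 11 listed), 0 passed, and 2 and 1 had such a p, with medians of 0.13 and 0.06. Myc, a known activator of Odc1 transcription, differed by 0.22 in wildtype and 0.17 in knockout mice, and by 0.05 and 0.16 without the 4 arrays. Its part in the Odc1 level was not tested. Mga, a Max-binding repressor, differed by 0.27 (SE 0.07, limma adjusted p = 0.171) in wildtype mice, and Mxd4, a Max dimerisation partner, by 0.16, which became 0.10 and 0.24 without the 4 arrays. With those arrays left out, 0 genes of any of these lists passed for CR in either genotype or averaged, and list medians lay between -0.19 and 0.17.

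**Figure D4:**
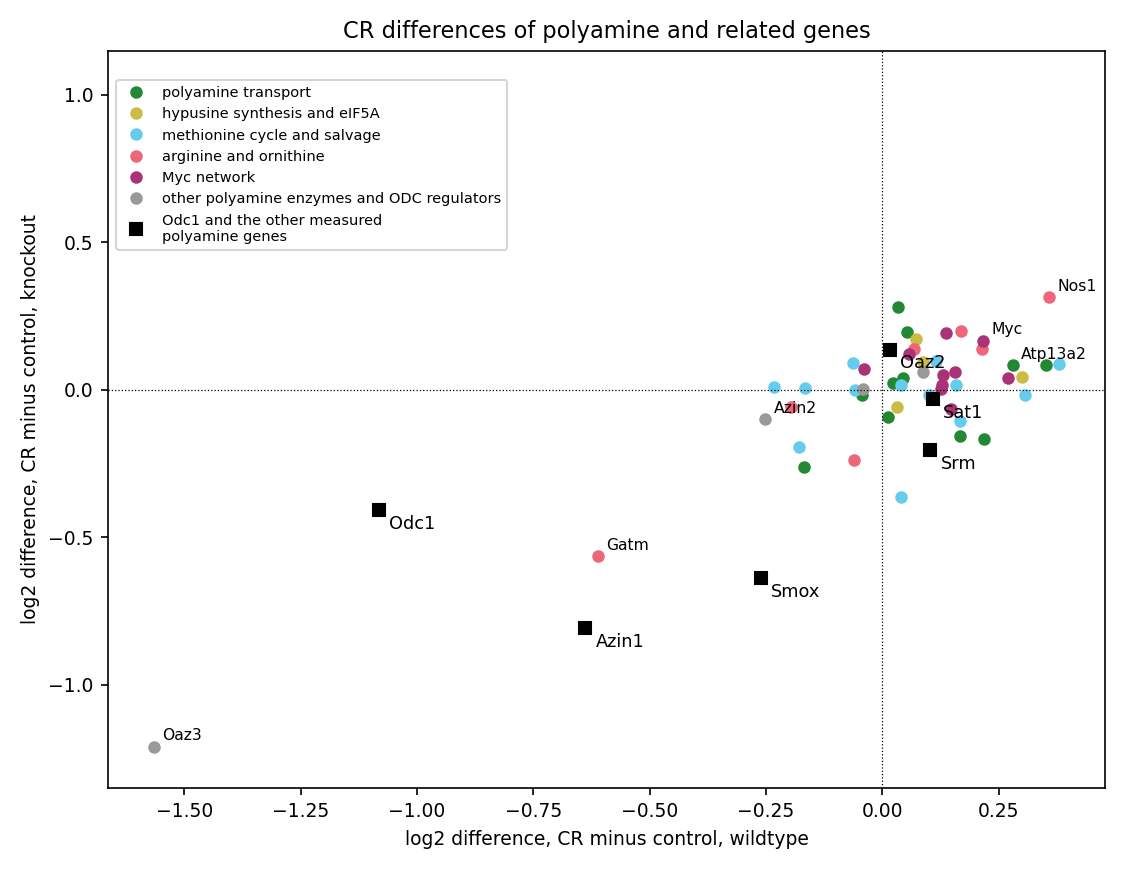
Log2 difference between CR and control in wildtype (horizontal axis) and in Sirt3 knockout mice (vertical axis) for the tested genes of each related list, with the 6 polyamine genes of this account marked. Odc1 lies at -1.08 and -0.41 and Azin1 at -0.64 and -0.81, while most genes of the other lists lie near 0.

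The genes whose levels were most like Odc1 over the 15 arrays, by Pearson r, were Slc39a10 (0.92), Atp10a (0.92), Sparc (0.89), Efhd2 (0.88) and Zcchc2 (0.88). Slc39a10 is a zinc transporter and Sparc a secreted matrix glycoprotein. By deviations from the group means the 5 most like it were G0s2, Plxnb2, Rangap1, Atp10a and 4930407I10Rik, with r from 0.83 to 0.87. Without the 4 arrays, none of the first 5 stayed among the nearest 5, and Slc39a10 had an r of 0.82 over 11 arrays. Over the same 11 arrays G0s2, Plxnb2, Rangap1, Atp10a and 4930407I10Rik had an r of 0.12, 0.23, 0.26, 0.64 and 0.23. These are of the levels and not of the deviations from group means. Azin1 had an r of 0.75 with Odc1 over the 15 arrays and ranked 93 among the genes, and Smox had 0.46. Srm, Sat1 and Oaz2 had 0.07, 0.06 and -0.07. These values share the arrays and their group differences and are given as descriptions.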

How the data were processed

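RNA from 15 gastrocnemius muscles was hybridised to Affymetrix arrays after biotin labelling, per the labels. The deposited values are log2 intensities that the authors made with RMA, per the submitters' processing notes. Neither its version, the genome build nor a scan day is given in the sources used here, and batches were not tested. No further normalization was applied, and array medians lay between 5.40 and 5.48. Of 35556 probe sets, 21789 had 1 symbol in the platform annotation, 1621 several and 12146 are unnamed here.

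Each gene was represented by its probe set of highest mean. Those whose mean was under the 40th percentile, 5.32, were left out, which kept 12056. The limma 3.58.1 fit (lmFit and eBayes, R 4.3.3) took the 15 arrays together, with 1 mean per genotype and diet group and 6 contrasts, two-sided with Benjamini-Hochberg adjustment within each. A change is called at an adjusted p under 0.05. Single values were tested by exact permutation. The fit was tested on simulated data. The alternatives were no filter, the 60th percentile, other probe set rules, quantile normalization, centring, a trended prior, array weights, the compared groups alone, the replicate number as a block, and arrays left out. Leaving out the 2 germ cell arrays, Odc1 by its second probe set, and the related lists without the 4 arrays with other tissues were added after the data were seen.

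The members and gene lists were chosen with earlier results of these data known. The genes named are the members, Sirt3, from each related list the genes called (none were) or else the 2 with the smallest unadjusted p in any comparison, Oaz3, Azin2, Paox, Amd2, Eif5a, Mat2a, Arg1, Arg2 and Myc whatever their values, and the 5 genes most like Odc1 over all arrays and within groups. Gene names and promoters came from RefSeq on GRCm38.p6. Figures used Python 3.11.15 and matplotlib 3.10.9.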

Additional observations from a re-analysis of the deposited data

Results flagged for a closer look

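Srm, spermidine synthase, read 8.09 in knockout control replicate 1, and the other 3 knockout control mice read 7.70 to 7.76. The gap to the nearest of them was 0.847 of the range of the group, above Dixon's 95% critical value for 4 samples. Of 20 groups of 4 tested over the 7 probe sets this was the 1 such value, and chance gives about 1 in 20. The array is one of the 2 with male germ cell transcripts. Their part in the value was not tested.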

How the results depend on the processing

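The Odc1 difference under CR in wildtype mice kept its sign in every setting run. That comparison chose the gene, so passing or missing the threshold there supports nothing. It missed the threshold, leaving 0 members called, with no filter (-1.08), the mean of the probe sets (-0.88), quantile normalization (-1.08), centring (-1.09), only the groups compared (-1.08), the replicate block (-1.07), without the 4 arrays with other tissues (-0.60), without the 2 germ cell arrays (-0.89) and by the second probe set (-0.69). The cause was not tested. Leaving out 1 array at a time gave -1.29 to -0.89 and 0 to 1 members called. It passed in 3 of 15 such fits: without wildtype control replicate 1, knockout control replicate 1 or knockout CR replicate 3. The wildtype arrays that chose Odc1 also enter the average over genotypes and the interaction, so neither is independent of the choice. Averaged over genotypes, Odc1 gave -0.47 without the 4 arrays and -0.85 to -0.65 without 1 array, passing in 15 of 15. There, 2 members, Odc1 and Azin1, were called at the 60th percentile, with array weights and without wildtype control replicate 1, and 2, Odc1 and Smox, without knockout control replicate 1. The interaction of Odc1 was 0.48 to 0.89 without 1 array and -0.13 by the second probe set. The exact permutation difference of Odc1 in knockout mice was -0.44 with centring (exact p = 0.0286) and -0.51 to -0.31 without 1 array, past the threshold without knockout CR replicate 3. By the second probe set, the knockout CR difference of -0.81 passed limma's threshold when only these groups were fitted (adjusted p = 0.0224), without the 4 arrays (0.0316) and without wildtype control replicate 1 or 3, and its wildtype difference passed without wildtype control replicate 1 (-0.90). Gatm averaged over genotypes passed there too (-0.81), and ranged up to -0.38, without wildtype control replicate 2. Without the 4 arrays, the lone wildtype control mouse is assumed to vary like the other groups. The genotype difference on the control diet changed sign without the 4 arrays for Azin1 (0.42) and Smox (0.04) and without the 2 germ cell arrays for Srm (-0.25), none of which was called. The genes most like Odc1 shared 3 of 5 by Spearman rho.

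Whether replicate numbers pair the samples was not settled. Of 21 same-number pairs, 7 had a correlation of deviations over 0.1. Their median was 0.01, with a range of -0.64 to 0.50, beside a median of -0.01 over 63 other pairs. These correlations cannot exclude a pairing or a shared batch, since some same-number pairs were correlated and others were not. The replicate block changed the call of Odc1 in wildtype mice and no other call of a member.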
